A study of Mus musculus with 6 samples.

Results

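The mitochondrial ribosomal protein genes were examined in the livers of aged wild-type (WT) and *Sirt7* knockout (KO) mice. The members were all protein-coding genes of the GENCODE M21 annotation of the mouse genome GRCm38 whose symbol begins with *Mrpl* or *Mrps* followed by a digit. This name rule uses no measured value. It gave 78 genes, 49 with large subunit symbols (*Mrpl*) and 29 with small subunit symbols (*Mrps*), out of 54115 genes with a transcript in the data. All 78 passed the filter on low counts, which kept 12524 genes for testing, and they lie on 17 chromosomes.

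Liver RNA of 3 WT and 3 *Sirt7* KO mice was sequenced, and all 6 animals were males aged 24 months that had been fasted for 16 h. The knockout affects the whole animal, on a C57BL/6J background reached by repeated backcrossing, and KO and WT mice were littermates from crosses of heterozygous parents. Full-length cDNA was made with a SMART-seq HT kit, which amplifies small amounts of RNA and does not mark the strand, and Nextera XT libraries were read from a single end. The question taken up here is whether loss of SIRT7 went with a difference in the mRNA of mitochondrial ribosomal proteins in the fasted aged liver.

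Mitochondria hold their own ribosome, which translates the few respiratory chain and ATP synthase subunits encoded by the mitochondrial genome. Its RNAs come from that genome, whereas all of its proteins are made from nuclear genes in the cytosol and imported. In hepatocytes, which are rich in mitochondria, this ribosome supplies the core of the oxidative phosphorylation complexes. SIRT7 is a nuclear deacetylase that has been described, in other cells, at promoters of mitochondrial ribosomal protein genes together with the transcription factor NRF1, and as a deacetylase of a subunit of the ETS-family factor GABP.

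The libraries held 9994860 to 13424776 assigned reads per mouse. Levels within a gene are given as CPM, read counts divided by library size with TMM factors, and levels between genes as TPM, which also divides by transcript length. Read counts of *Sirt7* were 55.2, 45.5 and 47.3 CPM in WT mice and 28.6, 41.7 and 40.8 CPM in *Sirt7* KO mice, for a log2 fold change of -0.41 (SE 0.18, adjusted p = 0.423, edgeR's quasi-likelihood test). The genotypes did not overlap, and a two-sided exact permutation test gave p = 0.1, below which a design of 3 against 3 cannot go. The direction depended on transcript length: with length offsets the log2 fold change was 0.81 in DESeq2 and 0.80 in edgeR, and the TPM of the gene was 34.4, 28.3 and 27.3 in WT mice and 34.7, 49.9 and 68.0 in KO mice. The 1727-base *Sirt7* transcript, which was chosen after the modest difference of the gene total had been seen, was assigned 429, 381 and 408 reads in WT mice and 124, 135 and 77.5 reads in KO mice. Shorter protein-coding transcripts went the other way, one of 1218 bases with 43.0, 0 and 65.3 reads in WT and 83.5, 119 and 192 reads in KO mice and one of 427 bases with 2.12, 5.12 and 0 reads in WT and 50.5, 54.1 and 93.3 reads in KO mice. Reads of the gene thus remained in the KO libraries, and the extent of the deletion is not given in the sources used here. The study also measured *Sirt7* in liver by qRT-PCR, and the legend of that figure has a mark for not detected, without naming the group. The 6 hepatocyte markers summed to 50400 to 54300 CPM in WT mice and 48900 to 58900 CPM in KO mice, so the tissue label held. Summed markers of Kupffer, sinusoidal endothelial, stellate, bile duct and lymphoid cells and of erythroid cells overlapped between genotypes, and no marker was at 0 in all mice. The erythroid list was the most uneven, with 374 to 546 CPM in WT and 446 to 915 CPM in KO mice, 5 of 5 markers above 0 on the log2 scale and 1 at unadjusted p under 0.05, and its part in the results was not tested. In bulk liver, fewer cells of a type and less RNA per cell cannot be told apart.

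As a group, the mitochondrial ribosomal protein mRNAs were close to equal in the 2 genotypes. The summed level of the 78 genes was 3325, 3393 and 2986 CPM in WT mice and 3024, 3235 and 3174 CPM in KO mice, or 3235 ± 218 against 3144 ± 109 (mean ± SD, n = 3 each). The lowest sum was in a WT mouse, the third, and the KO sums lay between the WT ones. The members took 0.298% to 0.372% of the reads of a mouse.

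None of the 78 genes was called different, where a call needed an adjusted p under 0.05 and a fold change over 1.5 in edgeR's quasi-likelihood test. The same call was made for 0.00798% of all tested genes, which is 1 gene, so the number of calls says little about the members. DESeq2 also called 0 members. The share of all genes that it called is not given here, so this count too says little about the members. At an unadjusted p under 0.05, 3 of 78 members (3.85%) passed against 11.3% of all tested genes. Of these, *Mrps27* was higher in KO mice, where 6.54% of all tested genes passed in that direction, and *Mrpl17* and *Mrpl52* were lower, where 4.78% passed. The smallest adjusted p was 0.287, for *Mrpl17*. The count rested on single mice: it was 1 without the second WT or the second KO mouse, 0 without the third KO mouse and 6 without the first KO mouse, when the shares over all tested genes were 8.95%, 7.59%, 8.19% and 17.1%.

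The log2 fold changes of the members lay between -0.47 and 0.49, with a median of -0.04 and quartiles at -0.17 and 0.10. Over all tested genes the median was -0.01 and the quartiles were -0.23 and 0.24. By direction, 34 members were above 0 and 44 below. No member differed by more than 1.5-fold, whereas 16.2% of all tested genes did. The members are also measured more precisely than most genes, with a median SE of 0.15 against 0.25 and a median level of 35.3 CPM against 11.5 CPM. The 95% interval of the fold change lay inside 1.5-fold in both directions for 58 of 78 members (74.4%, against 24.5% of all tested genes) and inside 2-fold for all 78 (against 59.4%). For these 58 genes a difference of 1.5-fold or more lay outside the interval, and for the other 20 it did not. Scaling to total counts moved the median of all tested genes to -0.11 and that of the members to -0.14, so that 18 members instead of 34 were above 0.

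**Figure D1:**
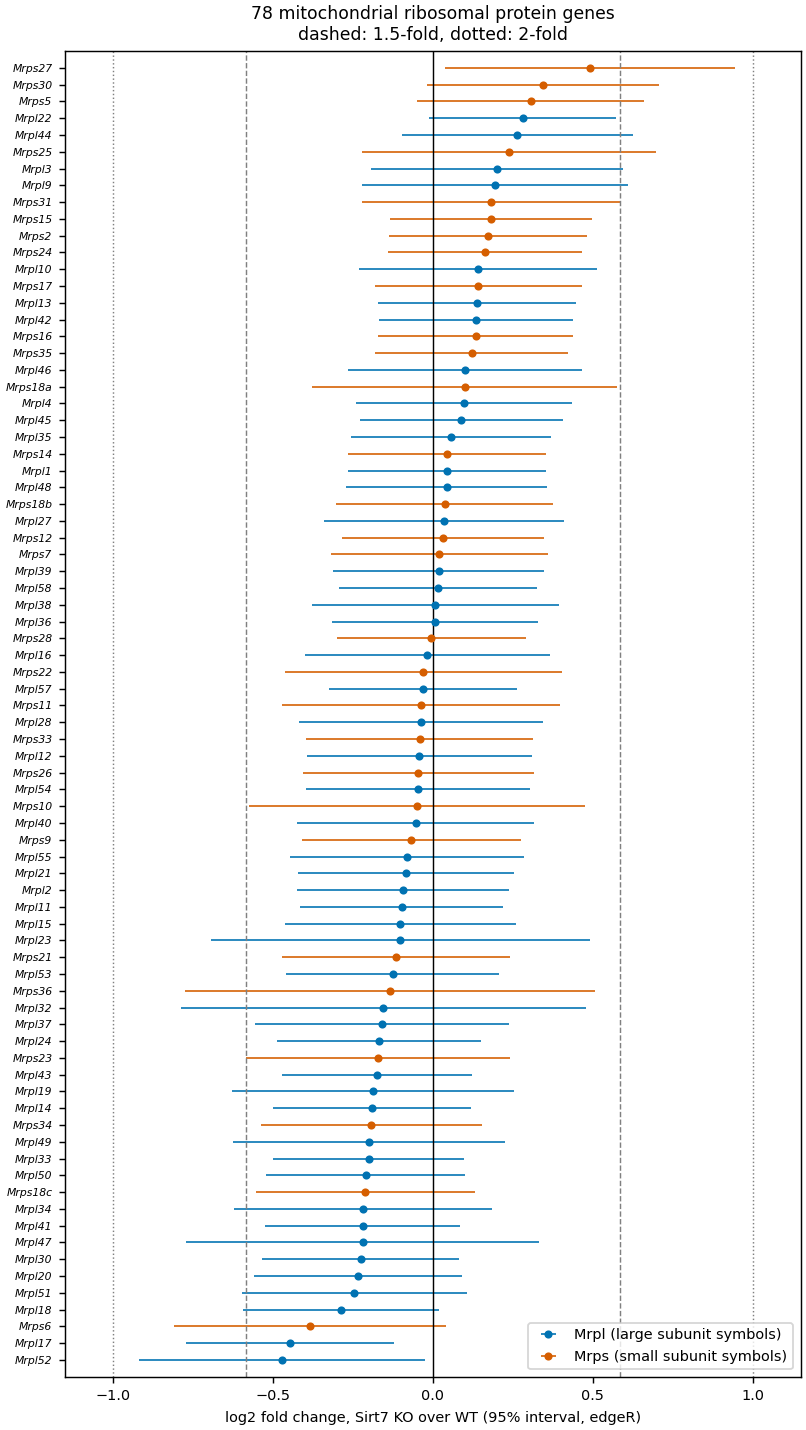
Each row is 1 of the 78 genes and the x axis is the log2 fold change of *Sirt7* KO over WT with its 95% interval from edgeR (3 mice per genotype, colored by subunit symbol). All points lie inside the dashed lines of 1.5-fold and all intervals inside the dotted lines of 2-fold, and 3 intervals, those of *Mrpl52*, *Mrpl17* and *Mrps27*, leave out 0.

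Groups that do not overlap are another description of the same values. The members whose 3 KO values were all above or all below the 3 WT values numbered 13 of 78, next to 16.8% of all tested genes. In 4 of them KO was higher (*Mrpl22*, *Mrps15*, *Mrps2* and *Mrps16*), where 8.73% of all tested genes were. In 9 of them KO was lower (*Mrpl17*, *Mrps6*, *Mrpl18*, *Mrpl20*, *Mrpl30*, *Mrpl41*, *Mrpl50*, *Mrpl33* and *Mrpl43*), where 8.09% were. The total of 16.7% was thus near the background. It was 21, 28 and 29 when the second WT, the third WT or the first KO mouse was left out, beside 26.2%, 27.4% and 36.4% of all tested genes, which are shares of 26.9%, 35.9% and 37.2% of the members.

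*Mrpl17*, which encodes the homologue of a bacterial protein near the exit of the peptide tunnel, was the gene with the smallest p. It lies on the minus strand of chromosome 7 from 105803206 to 105811099. Its level was 113, 114 and 96.7 CPM in WT mice and 87.5, 76.8 and 73.1 CPM in KO mice. Every KO mouse was below every WT mouse. The log2 fold change was -0.45 (SE 0.14, 95% interval -0.77 to -0.12, adjusted p = 0.287 in edgeR's test), and the adjusted p ran from 0.117 to 0.623 over 16 other settings. Only 0.16% of the 31-base words of *Mrpl17* occur in another gene, and 5 transcripts are annotated for it.

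*Mrpl52* encodes a large subunit protein with no bacterial counterpart, and lies on the plus strand of chromosome 14 from 54426909 to 54429756. Its level was 39.5, 33.7 and 25.5 CPM in WT mice and 26.6, 19.7 and 24.9 CPM in KO mice. The lowest WT mouse lay below the highest KO mouse, so the genotypes overlapped. The log2 fold change was -0.47 (SE 0.20, 95% interval -0.92 to -0.02, adjusted p = 0.406 in edgeR's test). It was -0.14 with length offsets in DESeq2 and -0.15 with those in edgeR, and -0.62 to -0.33 when single mice were left out. *Mrpl52* shares no 31-base word with another gene.

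*Mrps27*, which encodes an RNA-binding protein of the small subunit built from pentatricopeptide repeats, lies on the plus strand of chromosome 13 from 99344786 to 99415562. Its level was 21.5, 17.9 and 19.1 CPM in WT mice and 21.2, 34.7 and 26.5 CPM in KO mice. The second KO mouse stood highest, and the first KO mouse lay among the WT mice. The log2 fold change was 0.49 (SE 0.20, 95% interval 0.04 to 0.94, adjusted p = 0.390 in edgeR's test). It was 0.29 without the second KO mouse and 0.65 without the first. Its exons overlap the antisense gene *6430562O15Rik*, which holds 18.87% of its 31-base words, and without strand the reads of the 2 genes cannot be told apart there.

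The promoters of the 3 genes that passed the unadjusted threshold, and of *Mrpl22*, the member with the highest fold change among those whose genotypes did not overlap, are shown because SIRT7 has been described at such promoters. Each is 120 bases of RefSeq sequence upstream of or reaching the transcript start (GRCm38.p6), read 5′ to 3′ on the strand of the gene. Capitals mark the NRF1 motif letters GCGCATGCG and the ETS motif letters CCGGAAG or their reverse complement.
Mrpl17, chr7:105811088-105811207, minus strand: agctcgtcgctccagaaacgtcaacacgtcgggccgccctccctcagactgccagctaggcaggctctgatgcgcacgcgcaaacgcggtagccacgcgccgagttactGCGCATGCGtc
Mrpl52, chr14:54426789-54426908, plus strand: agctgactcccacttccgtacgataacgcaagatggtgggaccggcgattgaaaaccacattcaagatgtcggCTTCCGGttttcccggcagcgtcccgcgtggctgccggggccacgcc
Mrps27, chr13:99344666-99344785, plus strand: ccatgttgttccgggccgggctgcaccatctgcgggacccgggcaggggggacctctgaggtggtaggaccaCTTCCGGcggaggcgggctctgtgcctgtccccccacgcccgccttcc
Mrpl22, chr11:58171544-58171663, plus strand: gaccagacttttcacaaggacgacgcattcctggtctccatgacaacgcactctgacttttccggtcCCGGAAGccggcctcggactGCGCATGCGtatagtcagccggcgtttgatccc
The lower *Mrpl17* and the higher *Mrpl22* both hold the NRF1 letters close to the start. The lower *Mrpl52* and the higher *Mrps27* both hold the ETS letters. The promoter of *Mrps30*, the member with the second-highest fold change, holds none of the letters searched and is not shown because its stretch lies wholly in an annotated exon. The annotated exons of a gene or its neighbor cover 12 bases of the *Mrpl17* stretch, 40 of the *Mrps27* stretch, 3 of the *Mrpl22* stretch and 0 of the *Mrpl52* stretch.

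RefSeq windows of 300 bases, from 250 before to 50 after the start, were found for 69 of the 78 members. NRF1 letters occurred on either strand in 7 of these 69 genes (10.1%), against 1.95% of all 27025 genes with a window and 4.08% of the tested ones. ETS letters occurred in 26 (37.7%), against 9.93% and 20.7%. The YY1 letters AAGATGGCG occurred in 8 (11.6%), against 1.64% and 3.75%, and the E-box CACGTG in 5 (7.25%), against 8.09% and 11.9%. No 2 of these motifs contain each other, and 36 members held at least 1 of the NRF1, ETS and YY1 motifs. These letters are a description of the sequence and not of binding.

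Fold changes are given for the members with and without these letters. The median log2 fold change was 0.04 over the 7 members with the NRF1 letters and -0.04 over the 62 without. It was -0.04 both with and without the ETS letters, 0.08 over the 8 members with the YY1 letters and -0.05 over the 61 without, and -0.16 over the 5 with an E-box and -0.03 over the 64 without. By direction, 5 of 7 with the NRF1 letters and 10 of 26 with the ETS letters were above 0, against 25 of 62 and 20 of 43 without. Members with the YY1 letters were above 0 in 6 of 8 and those with an E-box in 1 of 5, against 24 of 61 and 29 of 64 without. These values were not tested, and the groups with the letters are small.

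Among the other members with low fold changes, *Mrps6*, a homologue of bacterial S6, was at 13.5, 14.4 and 12.8 CPM in WT mice and 8.88, 10.7 and 11.7 CPM in KO mice. It shares exons on the same strand with *Gm49711* and *Slc5a3*, and its log2 fold change was -0.38 (SE 0.19, adjusted p = 0.493, edgeR). *Mrpl18*, a homologue of the bacterial 5S rRNA-binding protein L18, was at 60.6, 71.8 and 68.4 CPM in WT mice and 52.2, 55.4 and 56.8 CPM in KO mice. In both genes every KO mouse was below every WT mouse, but neither passed the unadjusted threshold. The log2 fold change of *Mrpl18* was -0.29, and -0.04 with length offsets in DESeq2. *Mrpl51*, a mitochondria-specific large subunit gene, was at 76.4, 91.8 and 67.0 CPM in WT and 62.0, 69.6 and 66.8 CPM in KO mice, with overlap between the genotypes. A mean of 13.5% of the *Mrpl51* reads were assigned to protein-coding transcripts.

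At the other end, *Mrpl22*, whose bacterial homologue lines the peptide tunnel, was at 34.7, 35.9 and 32.9 CPM in WT mice and 44.2, 40.3 and 41.3 CPM in KO mice. Every KO mouse was above every WT mouse, with a log2 fold change of 0.28 (SE 0.13, 95% interval -0.01 to 0.57, adjusted p = 0.461, edgeR), and 29.78% of its 31-base words are shared with the processed pseudogene *Gm6997*. *Mrps5*, a homologue of bacterial S5, which acts in decoding fidelity, was at 22.8, 28.9 and 26.6 CPM in WT and 28.8, 35.7 and 32.5 CPM in KO mice. A mean of 29.9% of the *Mrps5* reads were assigned to protein-coding transcripts. *Mrps30*, which sits in the large subunit despite its symbol, was at 33.0, 32.1 and 28.3 CPM in WT and 32.9, 45.2 and 40.3 CPM in KO mice. *Mrpl44*, with an RNase III-like fold, was at 17.7, 20.4 and 19.4 CPM in WT and 24.8, 24.6 and 19.7 CPM in KO mice. In the last 3 genes the lowest KO mouse lay below the highest WT mouse, and the log2 fold changes were 0.31, 0.34 and 0.26.

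**Figure D2:**
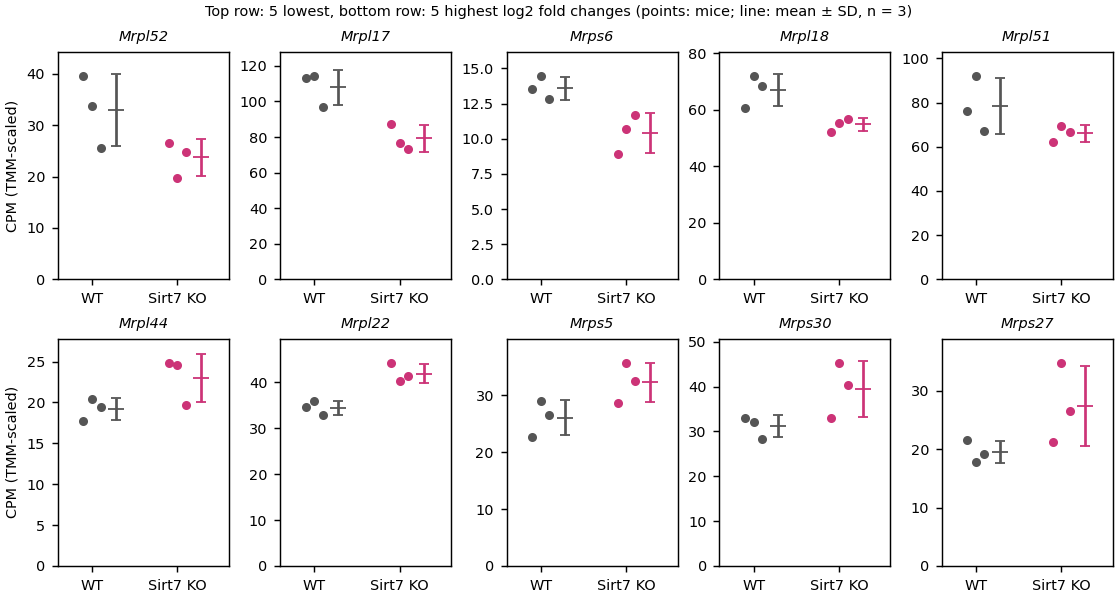
CPM in each mouse (points) with mean ± SD (n = 3) for the 5 members with the lowest (top row) and the 5 with the highest (bottom row) log2 fold change, y axes from 0. *Mrpl17*, *Mrps6*, *Mrpl18* and *Mrpl22* are the 4 panels in which WT and *Sirt7* KO points do not overlap.

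Other members were named for their roles, besides *Mrps5* and *Mrps30* above, and 0 of them passed the unadjusted threshold, as 11.3% of all tested genes did. *Mrpl12*, part of the stalk that recruits translation factors and a binding partner of the mitochondrial RNA polymerase, was at 172, 154 and 142 CPM in WT and 130, 171 and 155 CPM in KO mice. Its log2 fold change was -0.04 with a 95% interval of -0.40 to 0.31. *Mrpl10*, which anchors *Mrpl12* protein to the ribosome, had a log2 fold change of 0.14 (95% interval -0.23 to 0.52). *Mrpl45*, which ties the ribosome to the inner membrane, had 0.09 (95% interval -0.23 to 0.41). Its value depended on the setting, from -0.02 to 0.54 over the 16 other settings, and from 0.02 to 0.14 when single mice were left out. *Mrps12*, at the decoding center, had 0.03 (95% interval -0.28 to 0.35), and *Mrpl58*, a peptidyl-tRNA hydrolase built into the large subunit, had 0.02 (95% interval -0.29 to 0.32). *Mrps18a*, another large subunit protein with a small subunit symbol, had 0.10 (95% interval -0.38 to 0.58). Each of these 6 intervals, all from the main fit, lay inside 1.5-fold and held 0. *Mrps36*, now known as an adaptor of the alpha-ketoglutarate dehydrogenase complex and not as a ribosomal protein, had -0.13 (95% interval -0.77 to 0.51), an interval wider than 1.5-fold. The signs of *Mrpl45*, *Mrps12*, *Mrpl58* and *Mrps18a* turned negative under scaling to total counts.

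The median log2 fold change was -0.08 for the 49 large subunit symbols, of which 18 were above 0, and 0.03 for the 29 small subunit symbols, of which 16 were above 0. Of the 49 large subunit genes, 2 (4.08%) were lower at unadjusted p under 0.05, where 4.78% of all tested genes were. Lower without overlap were 8 of these 49 and 1 of the 29 small subunit genes, where 8.09% of all tested genes were. In either direction, 18.4% of the large and 13.8% of the small subunit genes did not overlap, against 16.8% of all tested genes. The summed level was 2255, 2312 and 2005 CPM in WT and 1980, 2123 and 2099 CPM in KO mice for large subunit symbols, and 1070, 1081 and 980 CPM in WT and 1044, 1113 and 1075 CPM in KO mice for small subunit symbols. Both sums overlapped between genotypes, and the subunits were not tested against each other. Under scaling to total counts the medians were -0.18 and -0.08, and without the third WT mouse the small subunit median was -0.03. The 45 genes with a bacterial homologue had a median of -0.04 and the 29 mitochondria-specific genes one of -0.03, while 4 genes were not classed.

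Per length, the members differed widely in level. The mean TPM over the 6 mice was highest for *Mrpl17* (244 TPM), *Mrps21* (209 TPM), *Mrpl52* (190.3 TPM), *Mrpl14* (165 TPM) and *Mrpl30* (144 TPM). It was lowest for *Mrpl19* (5.53 TPM), *Mrps30* (9.50 TPM), *Mrpl23* (9.55 TPM), *Mrpl1* (9.62 TPM) and *Mrps22* (10.6 TPM), and the extremes were 44.1-fold apart. The median was 46.2 TPM, with 60 members between 10 and 100 TPM, 14 above and 4 below. The median was 48.4 TPM for large and 38.3 TPM for small subunit symbols. The ranges of the 5 highest genes over the mice overlapped in part, *Mrpl52* from 116 to 287 TPM and *Mrps21* from 160 to 247 TPM, so their order is not firm. The order across members was nearly the same in every mouse, with Spearman correlations of 0.959 to 0.984 between mice and 0.988 between the genotype means over the 78 genes, which share annotation and transcript lengths. The genes of very short transcripts at the top, such as *Mrpl52* with an effective length of 129 bases, depend most on the length correction.

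**Figure D3:**
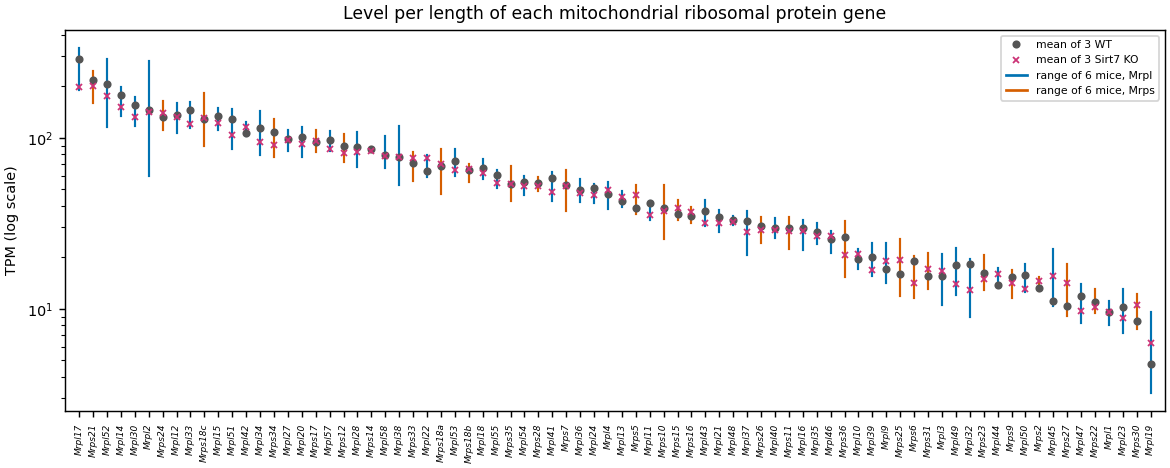
TPM on a log axis for the 78 genes ordered by their mean over 6 mice, with the range of the mice (bars) and the mean of 3 WT (dots) and 3 *Sirt7* KO mice (crosses). Levels run from 244 TPM for *Mrpl17* to 5.53 TPM for *Mrpl19*, and the genotype means lie close together along the order.

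Fold changes of the members were described against the length of their transcripts. The Spearman correlation between log2 fold change and effective transcript length was 0.33 over the 78 genes, and 0.237 to 0.37 when single mice were left out. It was 0.458 over the 80 tested cytosolic ribosomal protein genes, 0.56 over the 79 nuclear respiratory chain genes and -0.000317 over all 12524 tested genes, all measured in the same libraries. The 26 shortest members (129 to 520 bases) had a median of -0.10 with 9 above 0, the 26 in the middle -0.04 with 11 above 0, and the 26 longest (898 to 3070 bases) 0.02 with 14 above 0. Tested genes of the same length as the shortest members showed a like value, a median of -0.13 over 800 genes of which 34.2% were above 0. Those in the range of the longest members had a median of 0.02 over 7371 genes. With transcript length offsets in DESeq2 the correlation over the members was 0.315. *Mrpl17* and *Mrpl52*, the lower genes, are among the short ones and *Mrps27* and *Mrps30* among the long ones, and the part of length in their values was not tested.

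**Figure D4:**
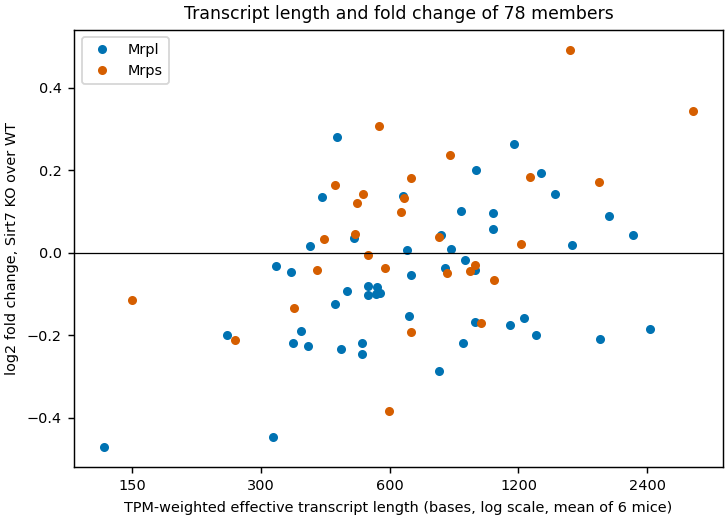
Effective transcript length weighted by TPM (x axis, bases, log scale, mean of 6 mice) against log2 fold change of *Sirt7* KO over WT for 78 members. The shortest 26 genes have a median of -0.10 and the longest 26 a median of 0.02 (Spearman 0.33).

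Salmon's assignment of reads to transcripts gave a second readout, the share of a gene's TPM on transcripts annotated as protein coding. Over the members, the median share was 94.1%, with 44 members above 90% and 17 below 50%. The share did not overlap between genotypes in 6 members (7.69%), next to 6.3% of 11270 tested protein-coding genes. By the share of reads, which gives short transcripts less weight, the number was 5 (6.41%), next to 6.47%, and 3 members were in both sets, *Mrpl12*, *Mrpl27* and *Mrpl57*. *Mrpl12* had 82.0%, 81.9% and 79.6% of its TPM on the protein-coding transcript in WT and 78.6%, 77.0% and 75.1% in KO mice. *Mrpl27* had 96.1%, 97.0% and 94.4% in WT and 97.1%, 97.4% and 97.5% in KO mice. The differences of the means were -4.28 percentage points in *Mrpl12* and 1.52 in *Mrpl27*. *Mrpl57* had 1.44%, 2.05% and 2.35% in WT and 3.02%, 3.06% and 2.38% in KO mice, its TPM lying mostly on a short transcript with a retained intron. The other 3 genes by TPM were *Mrpl23*, *Mrpl30* and *Mrpl32*. Each of the 6 reached p = 0.1, again the floor of the two-sided exact permutation test. In *Mrpl17* the share was 79.5% ± 3.06 in WT and 78.9% ± 0.786 in KO mice (SD, n = 3 each).

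The rest of the mitochondrial translation machinery was read from lists chosen alongside the members. Of 5 mitochondrial ribosomal proteins under other symbols, 4 were above 0 (median 0.05) and 1 passed at unadjusted p under 0.05, *Dap3*, a GTP-binding small subunit protein. *Dap3* was at 26.2, 23.5 and 29.6 CPM in WT and 32.0, 35.3 and 38.7 CPM in KO mice (log2 fold change 0.42, adjusted p = 0.346, edgeR). Of 29 assembly factors, 20 were above 0 (median 0.09) and 0 passed, against the same 11.3%. Of 16 translation factors and release factors, 12 were above 0 (median 0.14) and 1 (6.25%) passed, where 11.3% of all tested genes did. This was *Tufm*, the elongation factor that delivers aminoacyl-tRNA. *Tufm* was at 67.0, 70.9 and 68.5 CPM in WT and 79.8, 94.3 and 90.7 CPM in KO mice, without overlap (log2 fold change 0.36, adjusted p = 0.356, edgeR). Of all tested genes, 8.73% were higher in KO mice without overlap. Under total counts 8 of the 16 were above 0.

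Of 14 genes of mitochondrial transcription and its nuclear regulators, 4 were above 0 (median -0.17). *Yy1*, a zinc-finger transcription factor, was the 1 gene that passed (7.14%, against 11.3% of all tested genes). Its level was 19.9, 18.1 and 24.9 CPM in WT and 12.3, 11.7 and 17.4 CPM in KO mice (log2 fold change -0.61, adjusted p = 0.334, edgeR). *Nrf1* was at 14.1, 10.3 and 10.9 CPM in WT and 7.33, 13.8 and 11.9 CPM in KO mice (log2 fold change -0.10). *Gabpa* and *Gabpb1*, the subunits of GABP, had log2 fold changes of 0.11 (SE 0.19) and 0.38 (SE 0.33), and the coactivator *Ppargc1a* had -0.39 (SE 0.34). When single mice were left out, *Gabpb1* ran from 0.20 (first WT mouse) to 0.67 (second WT mouse) and *Ppargc1a* from -0.68 (second KO mouse) to -0.06 (first KO mouse). None of these 4 regulators passed the unadjusted threshold. Of 10 mitochondrial chaperones and proteases, 6 were above 0 (median 0.01), and *Clpx*, the unfoldase of the matrix protease CLPXP, stood apart. *Clpx* was at 152, 120 and 117 CPM in WT and 337, 276 and 246 CPM in KO mice, and every KO mouse was above every WT mouse. Its log2 fold change was 1.14 (SE 0.18, adjusted p = 0.0730 in edgeR's test), and over the 16 other settings its adjusted p ran from 5.62e-07 (DESeq2) to 0.335 (without the second WT mouse), under 0.05 in 5 of them.

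The cytosolic ribosomal protein genes, whose products form the other ribosome of the cell, were mostly below 0. Of 80 tested, 75 were below 0 (median -0.25), 6 passed at unadjusted p under 0.05 (7.5%), all lower, where 4.78% of all tested genes were, and 21 were lower in KO without overlap (26.2%), where 8.09% were. The count of 6 was 0 without the first WT or the second KO mouse, 1 and 2 without the third KO or the second WT mouse, 12 and 31 without the third WT or the first KO mouse, and 26 under total counts. The shares of all tested genes at unadjusted p under 0.05 in either direction were then 9.2%, 7.59%, 8.19%, 8.95%, 9.82%, 17.1% and 12.1%. The count of 21 was 41 and 53 without the third WT or the first KO mouse, beside 27.4% and 36.4% of all tested genes without overlap. Their summed level was 9030, 7994 and 7581 CPM in WT and 7387, 6959 and 6978 CPM in KO mice. The mitochondrial members thus held a median nearer to 0 than the cytosolic ones, and this difference was not tested.

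**Figure D5:**
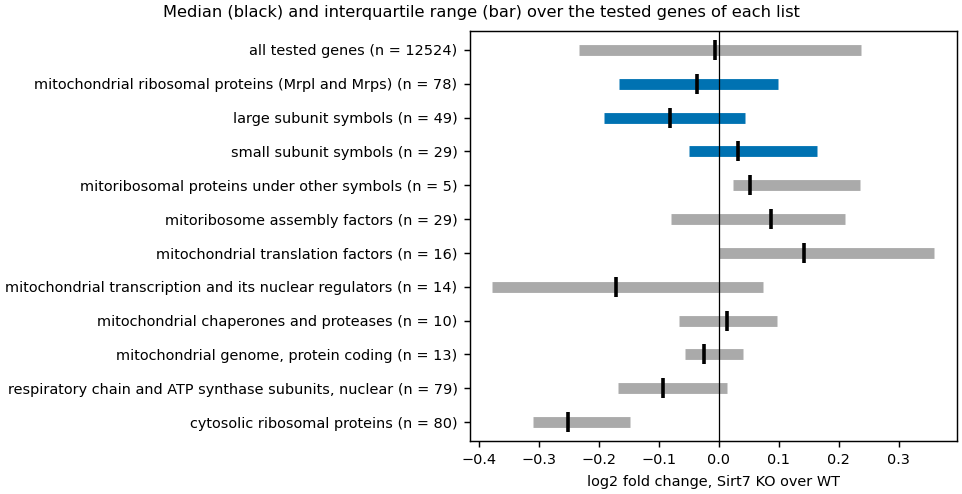
Median (black mark) and interquartile range (bar) of the log2 fold change of *Sirt7* KO over WT for each list, with the number of tested genes, members in blue. The members' median is -0.04 with quartiles of -0.17 and 0.10, that of all tested genes -0.01 with -0.23 and 0.24, and that of the cytosolic ribosomal proteins -0.25.

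Reads of some members are uncertain because other genes share their sequence. Of the 78 members, 29 hold over 10% of their 31-base words in common with another gene and 16 share none. The exons of 28 overlap those of a gene on the other strand, where the library kit cannot separate them, and those of 8 overlap a gene on the same strand. Over the 49 members with under 10% shared words, 2 passed at unadjusted p under 0.05, next to 11.3% of all tested genes.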

How the data were processed

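For each mouse the authors deposited the estimated count of reads per transcript, not normalized, and TPM, which their quantification scales to effective transcript length and library total. The submitters' processing notes name Trim Galore 0.6.5 and Salmon 1.2.1, and the annotation release is not given in the sources used here. Estimated counts were summed over the transcripts of each GENCODE M21 gene and rounded. Transcripts without a gene held 0.303% to 0.492% of the reads of a mouse and were left out. The mice are separate animals, and each counted as 1 replicate.

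Genotypes were compared with edgeR 4.0.16 (R 4.3.3) by the quasi-likelihood test with TMM normalization, the filterByExpr minimum count of 10 and Benjamini-Hochberg adjustment over all 12524 tested genes. A call needed an adjusted p under 0.05 and a fold change over 1.5. The biological coefficient of variation was 26.4%. DESeq2 1.42.0, other scalings, filters, length offsets, protein-coding transcripts only and leaving out each mouse were alternatives. Single values were compared by exact permutation (scipy 1.17.1). Levels between genes used TPM. Promoters came from RefSeq (GRCm38.p6) and overlaps from GENCODE M21.

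The members, lists and named-gene rule were chosen with earlier results of these data known. The rule names members at unadjusted p under 0.05, the 5 highest and 5 lowest by fold change and by TPM, members with known roles, genes of the other lists at unadjusted p under 0.05, 4 regulators and *Sirt7*. The single genes of the cytosolic ribosomal protein list are not reported here. Genes listed for groups that do not overlap, or for the share of protein-coding transcripts, were picked after their values were seen. Depth ranged from 9994860 to 13424776 reads per mouse and from 47 to 2036 reads per member and mouse, and the intervals rest on 3 mice per genotype.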

Additional observations from a re-analysis of the deposited data

How the results depend on the processing

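The 95% interval reached beyond 1.5-fold for 20 of the 78 members, so a difference of that size lies within their error. In each setting run, 0 members were called. The share of all tested genes called is given for the main setting only (0.00798%), so these counts say little about the members. The count of members at unadjusted p under 0.05 (3 as reported) was 8 with total counts, 1 with length offsets in DESeq2 and 1 with length offsets in edgeR, and 0 to 6 when single mice were left out. DESeq2 without offsets gave 2. In each setting its share was below that of all tested genes, 10.3% against 12.1% with total counts. When mice were left out, the number without overlap ran from 13 (16.7%, without the second KO mouse) to 29 (37.2%, without the first). The shares of all tested genes were then 23.7% and 36.4%. The median over the members was -0.14 with total counts, when that of all tested genes was -0.11, and -0.08 to 0.02 when mice were left out. The large subunit median was -0.18 and the small subunit median -0.0805 with total counts, and the latter ran from -0.0276 to 0.0752 when mice were left out.

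Whether the replicate numbers shared by the genotypes pair the mice cannot be told from these data. The deviations of same-numbered mice correlated at 0.0649, 0.0798 and -0.0437, and those of other-numbered mice at -0.102 to 0.0486. With a replicate block, 2 members were at unadjusted p under 0.05 (*Mrpl17* and *Mrpl52*), 0 were called and the median was -0.03. The block took the adjusted p of *Clpx* to 0.0409, as no filter (8.29e-07), DESeq2 (5.62e-07), DESeq2 with length offsets (4.25e-05) and leaving out the first KO mouse (0.0256) also took it under 0.05.

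Some log2 fold changes changed sign, among them those of *Sirt7* (-0.41 in the main fit) and *Mrpl19* (-0.19), which were not near 0. With total counts they were -0.0638 for *Mrpl1*, -0.0197 for *Mrpl45*, -0.0967 for *Mrpl58*, -0.0805 for *Mrps12* and -0.0181 for *Mrps18a*. With length offsets in DESeq2 and edgeR they were 0.45 and 0.44 for *Mrpl19*, -0.058 and -0.0654 for *Mrps12*, and 0.81 and 0.80 for *Sirt7*, and *Mrpl12* had 0.0097 in DESeq2. With protein-coding transcripts only, *Mrps36* had 0.0143. When single mice were left out, the ranges were -0.13 to 0.0621 for *Mrpl12*, -0.26 to 0.0083 for *Mrpl23*, -0.0516 to 0.0665 for *Mrpl58*, -0.0462 to 0.0922 for *Mrps12*, -0.0938 to 0.23 for *Mrps18a*, -0.12 to 0.0672 for *Mrps22*, -0.46 to 0.0618 for *Mrps36* and -0.29 to 0.13 for *Nrf1*. The cause of these changes was not tested. The 5 members with the highest and the 5 with the lowest fold change kept their direction in all of these settings, but some sizes moved by over 1.5 times: *Mrpl52* from -0.47 to -0.14 and *Mrpl18* from -0.29 to -0.039 with length offsets in DESeq2, and *Mrpl51* from -0.25 to -0.083 with protein-coding transcripts only. With total counts, which move the median of all tested genes to -0.11, *Mrpl22* had 0.17 and *Mrpl44* 0.16.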

Other observations

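The mRNAs that the mitochondrial ribosome translates come from 13 protein-coding genes of the mitochondrial genome, and their proteins were not measured. The summed mRNA level of these genes was 19379, 23410 and 24779 CPM in WT mice and 30189, 19346 and 16540 CPM in *Sirt7* KO mice. The first KO mouse was the highest of all 6 and the third the lowest, so the KO mice spanned the WT mice. Of the 13 genes, 6 were above 0, with a median log2 fold change of -0.02. At unadjusted p under 0.05 in edgeR's test 0 passed, where 11.3% of all tested genes did. These values rested on single mice. Without the first KO mouse 0 of 13 were above 0, the median was -0.50, 8 passed where 17.1% of all tested genes did, and 10 did not overlap (76.9%) where 36.4% of all tested genes did not. Without the third KO mouse 13 of 13 were above 0, with a median of 0.18, and without the second KO, the first WT and the third WT mouse the median was 0.12, -0.13 and 0.08. In the same first KO mouse the summed level of the 78 mitochondrial ribosomal protein genes was 3024 CPM, the lowest of the KO mice. The third WT mouse was lower still, at 2986 CPM, and a link between the 2 sums was not tested.

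The nuclear genes for respiratory chain and ATP synthase subunits, whose products assemble with those made in mitochondria, had a median log2 fold change of -0.09 over 79 tested genes. Of these, 23 were above 0 and 0 passed at unadjusted p under 0.05, where 11.3% of all tested genes did. Lower in KO mice without overlap were 8 (10.1%, where 8.09% of all tested genes were). Without the first KO mouse 17 of the 79 genes passed, where 17.1% of all tested genes did, and 48 did not overlap (60.8%), where 36.4% did not. Without the third WT mouse 2 of the 79 passed, where 9.82% of all tested genes did, and 19 did not overlap (24.1%, against 27.4%). Without the first WT mouse 12 did not overlap (15.2%, against 25.6%). The summed level was 17542, 18445 and 17070 CPM in WT and 16633, 17927 and 17335 CPM in KO mice, with overlap between the genotypes.

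Members also have pseudogene copies that carry the family's symbols. The annotation holds 5 such genes that are not protein coding, and they were assigned 267.1 to 398.3 reads per mouse in all, which were not counted with the members.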
